A study of Mus musculus with 6 samples.

Results

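The 7 genes described here encode ion channels of the sperm cell: the CatSper subunit genes Catsper1, Catsper2, Catsper3, Catsper4 and Catsperb, the potassium channel gene Kcnu1 and the proton channel gene Hvcn1. They were chosen by gene name, as all probes that the platform assigns to one of these symbols, which gave 9 of the 45281 probes on the array and 7 of 19057 genes with a symbol. The measurements are intensities of total testis RNA from male C57Bl/6 mice aged 4 months, measured on MouseWG-6 v2.0 BeadChips of Illumina with 1 array per mouse. Mice 3, 4 and 6 had received the high-fat diet, which is butter-rich and sucrose-rich and called Western-like diet (WD) in the study, and mice 1, 2 and 5 the standard diet (SD). The diets started at weaning, and the arrayed mice were drawn at random after those with the strongest response to the diet had been left out. The labels carry no genotype other than the strain, and each sample is a whole testis extract that holds germ cells and somatic cells together, so that fewer cells of a type and less RNA per cell cannot be told apart.

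CatSper is the calcium channel of the sperm flagellum. Its pore is built from the 4 proteins of Catsper1 to Catsper4, and accessory subunits such as the one encoded by Catsperb hold the complex in the flagellar membrane. The channel opens when the inside of the sperm turns alkaline and is needed for hyperactivated swimming, and male mice that lack a pore subunit are infertile. Kcnu1 encodes SLO3, a potassium channel that responds to the same alkalinisation and hyperpolarises the sperm membrane. Hvcn1 encodes a voltage-gated proton channel that lets protons leave the cell. Its role in sperm is known from human cells, and it is also known from phagocytes and B lymphocytes. Transcripts of CatSper genes appear in the germ cells of the testis, whereas the channel works in sperm.

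The arrays were similar in the share of detected probes. A probe counts as detected where its detection p, the chance of such an intensity among control beads without a target, is under 0.05. Between 43.5% and 44.1% of the probes were detected in WD mice and between 42% and 47.1% in SD mice, and the raw median intensity was 120.1 to 159.3 in WD mice and 126.2 to 172.5 in SD mice. WD mouse 6 and SD mouse 5 had the dimmest arrays, and they are also the only ones whose sample descriptions carry no number. Levels below are log2 values after background correction and quantile normalization, unless called raw intensities. A level is not read as more or less transcript than that of another probe, because each probe binds its target with its own strength. Sums over probes and the gap between the probes of Catsper3 serve only to compare mice. Across the array 0 of 19763 tested probes passed an adjusted p of 0.05 between the diets in limma (0% higher and 0% lower in WD), and 506 were higher (2.56%) and 507 lower (2.57%) at an unadjusted p under 0.05.

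Transcripts of the CatSper pore and of SLO3 were detected in every testis, while those of Catsperb and Hvcn1 lay at the limit of detection. The single probes of Catsper1, Catsper2, Catsper4 and Kcnu1 and both probes of Catsper3 were detected on all 6 arrays. The probe of Catsperb was detected in 2 WD mice and 0 SD mice. One probe of Hvcn1 was detected in 2 WD mice and 2 SD mice, and its other probe in 0 mice. In all, 6 of the 9 probes were detected on all 6 arrays, compared to 36.2% of the probes on the array.

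**Figure D1:**
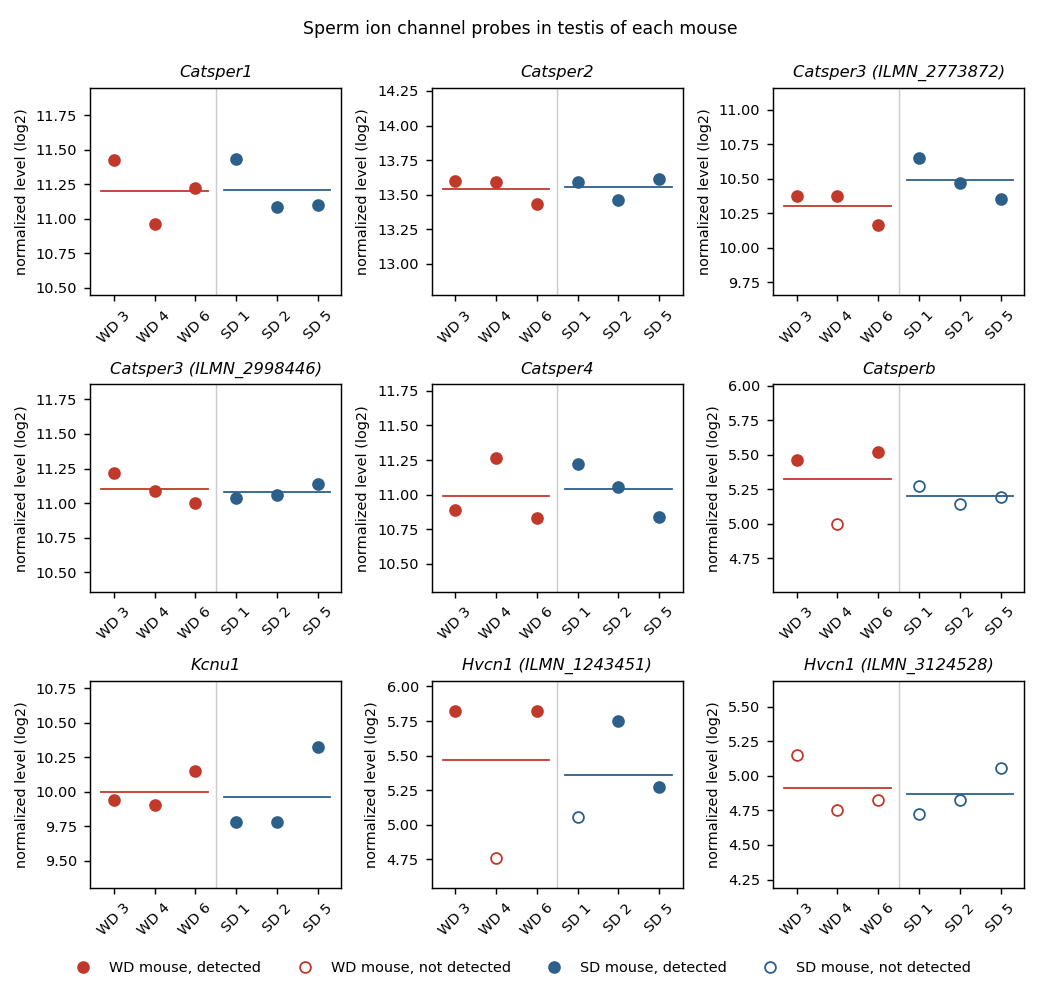
Normalized log2 level (vertical axes, each spanning the same range) of the 9 probes in the WD mice (left, red) and the SD mice (right, blue), with filled circles for detected values, open circles for undetected ones and lines for the diet means. In every panel the values of the diets overlap, and the open circles are limited to Catsperb and Hvcn1.

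Sequences upstream of the genes are shown for Catsper2, whose window held the most motif matches, and for Catsperb, which was hardly detected. The RefSeq table for GRCm38.p6 held a window from 250 bases before to 50 bases after the start for 4 of the 7 genes, Catsper2, Catsper3, Catsper4 and Catsperb. Catsper1, Kcnu1 and Hvcn1 had no entry. The windows of Catsper2 (chr2:121413743-121414042, minus strand) and Catsperb (chr12:101404423-101404722, plus strand) are printed from 5′ to 3′, with capitals for matches to the motifs named after them.
Catsper2: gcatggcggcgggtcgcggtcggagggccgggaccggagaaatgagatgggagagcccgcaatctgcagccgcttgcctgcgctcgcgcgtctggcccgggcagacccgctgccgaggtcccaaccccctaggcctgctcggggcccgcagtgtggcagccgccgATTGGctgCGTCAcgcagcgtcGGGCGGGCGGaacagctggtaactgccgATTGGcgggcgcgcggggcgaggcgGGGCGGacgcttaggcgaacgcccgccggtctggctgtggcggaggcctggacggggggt
Catsperb: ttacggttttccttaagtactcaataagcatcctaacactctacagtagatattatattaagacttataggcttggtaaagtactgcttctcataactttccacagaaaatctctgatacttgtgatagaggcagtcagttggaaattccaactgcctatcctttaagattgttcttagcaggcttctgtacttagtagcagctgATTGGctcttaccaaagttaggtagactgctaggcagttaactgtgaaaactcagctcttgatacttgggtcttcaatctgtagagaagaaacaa
The motifs were searched on both strands and are the half-site of the cyclic AMP response element (TGACG), the GC box (GGGCGG), the CCAAT box (CCAAT) and the TATA box (TATAAA). Catsper2 held 1 half-site, 3 GC boxes, of which 2 overlap, and 2 CCAAT boxes. Catsperb held 1 CCAAT box, and the windows of Catsper3 and Catsper4 held 0 matches to any of them. Of 32851 windows of the same length, 20.8% held the half-site, 35.7% a GC box, 37.4% a CCAAT box and 13.6% a TATA box. The window of Catsper2 had 74.7% G and C and 41 CpG dinucleotides, those of Catsper3, Catsper4 and Catsperb had 3, 2 and 1 CpG, and the median window had 7. Catsper3 and Catsper4 were detected on all arrays, and their windows, like that of Catsperb, had fewer CpG than the median. Whether CpG content is related to detection was not tested. A match is a description of letters, not of a binding site.

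The pore subunit genes did not differ detectably between the diets. The largest difference among their 5 probes was -0.18, at 1 probe of Catsper3, and the adjusted p of all 5 was at least 0.942. Catsper1, the first pore subunit, had raw intensities of 2901, 2081 and 2001 in WD mice 3, 4 and 6, against 3495, 2635 and 1948 in SD mice 1, 2 and 5. The normalized levels were 11.43, 10.96 and 11.22 in the WD mice, against 11.43, 11.08 and 11.10 in the SD mice. The highest WD mouse and the highest SD mouse were alike, and WD mouse 4 was the lowest of all. Means were 11.20 ± 0.234 in WD and 11.21 ± 0.196 in SD (standard deviation, n = 3 each), with a difference of -0.003 ± 0.170 (SE, adjusted p = 0.999).

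Catsper2 had the most even levels of the single-probe pore genes. Its raw intensities were 12314, 12292 and 9173.5 in the WD mice, against 15124, 13131 and 10886.5 in the SD mice. After normalization the levels were 13.60, 13.59 and 13.43 in the WD mice, against 13.59, 13.46 and 13.61 in the SD mice. All 6 mice lay within 0.181 of each other, and the lowest was the dim array of WD mouse 6. The difference between the diets was -0.02 ± 0.127 (SE, adjusted p = 0.995), with a 95% interval of 0.808-fold to 1.21-fold. Of all tested probes, 7.55% had a smaller standard deviation within the diets than the 0.0869 of Catsper2.

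Catsper3 was measured by 2 probes, which did not give the same difference. The probe ILMN_2998446 had levels of 11.22, 11.09 and 11.00 in the WD mice, against 11.04, 11.06 and 11.14 in the SD mice, a difference of 0.02 ± 0.126 (SE, adjusted p = 0.991). The probe ILMN_2773872 had 10.38, 10.37 and 10.16 in the WD mice, against 10.65, 10.47 and 10.35 in the SD mice, a difference of -0.18 ± 0.140 (adjusted p = 0.942). At this probe WD mouse 6 was the lowest and SD mouse 1 the highest, and WD mice 3 and 4 lay just above SD mouse 5, so that the diets overlapped. The gap between the probes averaged 0.795 ± 0.0720 in the WD mice and 0.588 ± 0.197 in the SD mice (standard deviation, n = 3 each), and the difference of 0.207 between these gaps had an exact two-sided permutation p of 0.2, where 3 against 3 mice allow 0.1 at the least. The test could thus not pass 0.05 with these mice, and whether the probes differ in their response is not settled by it.

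Catsper4, the remaining pore subunit, varied between mice of the same diet. Raw intensities were 2048, 2541 and 1554 in the WD mice, against 3035, 2582 and 1626 in the SD mice. Normalized levels were 10.89, 11.26 and 10.83 in the WD mice, against 11.22, 11.06 and 10.84 in the SD mice. WD mouse 4 was the highest and WD mouse 6 the lowest, with SD mouse 5 next to it, so that each diet covered nearly the whole range. The difference was -0.04 ± 0.169 (SE, adjusted p = 0.987). Catsper1 and Catsper4 ordered the WD mice in different ways, since WD mouse 4 was the lowest in Catsper1 and the highest in Catsper4.

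Catsperb, the accessory subunit of the list, was too dim for a test. Its raw intensities were 172.5, 142.7 and 130.9 in the WD mice, against 179.8, 154 and 128.7 in the SD mice. The detection p was 0.0353, 0.184 and 0.0214 in the WD mice, against 0.0694, 0.112 and 0.0502 in the SD mice, so that SD mouse 5 missed the threshold narrowly. Normalized levels were 5.46, 5.00 and 5.52 in the WD mice, against 5.27, 5.14 and 5.20 in the SD mice. The probe was not well above background on any SD array. Its WD mean was 0.992 times a bound for the SD mice, the mean over their arrays of the lowest signal among detected probes or, where higher, of the probe itself, so that no fold is given. The diets overlapped, with WD mouse 4 the lowest of all. The platform assigns this probe to a record of a cDNA clone and not to a RefSeq mRNA, as it does for 3412 probes with 1 symbol, of which 13.1% were detected on all 6 arrays. Of 30428 probes assigned to a RefSeq mRNA, 43.1% were detected on all 6 arrays. The part of the record in the low signal of Catsperb was not tested.

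Kcnu1, the SLO3 potassium channel, was higher in WD mouse 6 and SD mouse 5 than in the other mice. Its raw intensities were 1130, 1067 and 995.2 in the WD mice, against 1209, 1129 and 1173 in the SD mice. Normalized levels were 9.94, 9.91 and 10.15 in the WD mice, against 9.78, 9.78 and 10.32 in the SD mice. These mice with the highest levels are those with the dimmest arrays, and their part in the levels was not tested. The difference between the diets was 0.04 ± 0.180 (SE, adjusted p = 0.989). Among mice 1 to 4 alone it was 0.14, and WD mouse 6 minus SD mouse 5 gave -0.18.

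Hvcn1, the proton channel, had the widest spread of the tested probes of the 7 genes. At the probe ILMN_1243451, raw intensities were 186.8, 132.2 and 139.8 in the WD mice, against 170.2, 178.5 and 130.8 in the SD mice. Normalized levels were 5.82, 4.76 and 5.82 in the WD mice, against 5.05, 5.75 and 5.28 in the SD mice. WD mouse 4 and SD mouse 1 were undetected, and WD mice 3 and 6 and SD mouse 2 formed the upper end. The difference was 0.11 ± 0.311 (SE, adjusted p = 0.981), and the 95% interval of 0.656-fold to 1.77-fold leaves room for changes of more than 1.5-fold. The standard deviation within the diets was 0.503, above that of 96.7% of the tested probes. The probe ILMN_3124528 had levels between 4.75 and 5.15 in the WD mice and between 4.72 and 5.06 in the SD mice and was undetected throughout.

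Because Hvcn1 is also used by immune cells, markers of these were set beside it. Of 16 macrophage and antigen presentation genes, 12 were tested, and 11 of these had a positive difference, the median of the list being 0.42. A positive difference was also found at 5827 of all 11264 tested genes, and 0 of the 12 passed the adjusted threshold. At an unadjusted p under 0.05 in limma, 3 of the 12 were higher in WD and 0 lower. Of all 11264 tested genes, 279 were higher at that threshold. Every WD mouse lay above every SD mouse at 3 of the 12, compared to 611 of all tested genes. Relative to the SD mean of each gene, the median of the 12 was 1.01 in WD mouse 3. It was 0.253 and 0.134 in WD mice 4 and 6, and -0.088, -0.0127 and 0.0362 in SD mice 1, 2 and 5. The summed linear level of the 12 was 5740, 3420 and 3230 in WD mice 3, 4 and 6, against 2880, 2930 and 2860 in SD mice 1, 2 and 5. The diets overlapped neither in this median nor in this sum, and WD mouse 3 was the highest in both. At its tested probe, which lay at the limit of detection, Hvcn1 had 5.82 in WD mouse 3 and in WD mouse 6. Of 6 B lymphocyte markers 4 had probes, and 0 of their 7 probes passed the detection filter. The part of these cells in the Hvcn1 signal was not tested.

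Counted together, 3 of the 6 tested genes were higher in WD and 3 were lower, with ILMN_2998446 standing for Catsper3 and a median difference of 0.01, which was also the median over the 11264 tested genes. In limma 0 of them passed the adjusted threshold (0% of all tested probes did), and 0 had an unadjusted p under 0.05. The values of the diets overlapped at all 6 genes, whereas the diets did not overlap at 10.2% of all tested probes, with WD above SD at 5.17% and below it at 4.98%. The 95% intervals of the 5 pore probes and of Kcnu1, which are not adjusted for their number, lay between 0.704-fold and 1.37-fold. Averaged over the 6 genes after centring each on its own mean, the levels were 0.107, -0.115 and 0.0342 in WD mice 3, 4 and 6, against -0.0229, -0.00884 and 0.00606 in SD mice 1, 2 and 5. This mean leans on Hvcn1, which had the widest spread and was undetected in WD mouse 4, the lowest in the mean. The median over the same genes, taken relative to the SD mean of each, was 0.0907, -0.0232 and -0.0295 in the WD mice, against -0.00226, -0.055 and -0.0147 in the SD mice, so that SD mouse 2 was the lowest and the diets overlapped.

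Further subunits of the CatSper complex likewise gave values on both sides of 0. Of 10 genes 8 had a probe and 6 were tested, of which 3 were higher and 3 lower in WD, with 0 called and a median of 0.02. Catsperd, an accessory subunit gene, had the highest difference with 0.15 ± 0.149 (SE, adjusted p = 0.965). Efcab9, which encodes a calcium-binding partner of the channel, had the lowest with -0.29 ± 0.138 (adjusted p = 0.935). Its levels were 11.19, 11.40 and 11.33 in the WD mice, against 11.72, 11.62 and 11.43 in the SD mice, so that all WD mice lay below all SD mice, the highest WD mouse by a margin smaller than the spread within either diet. Catsperz, which binds Efcab9 in the complex, had -0.01 (adjusted p = 0.996). Catsperg1, whose probe is also assigned to a cDNA clone, was detected in WD mouse 3 alone and was not tested, while its paralog Catsperg2 was detected in all mice with a difference of 0.10. Whether the probes of such near copies bind both transcripts was not tested.

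**Figure D2:**
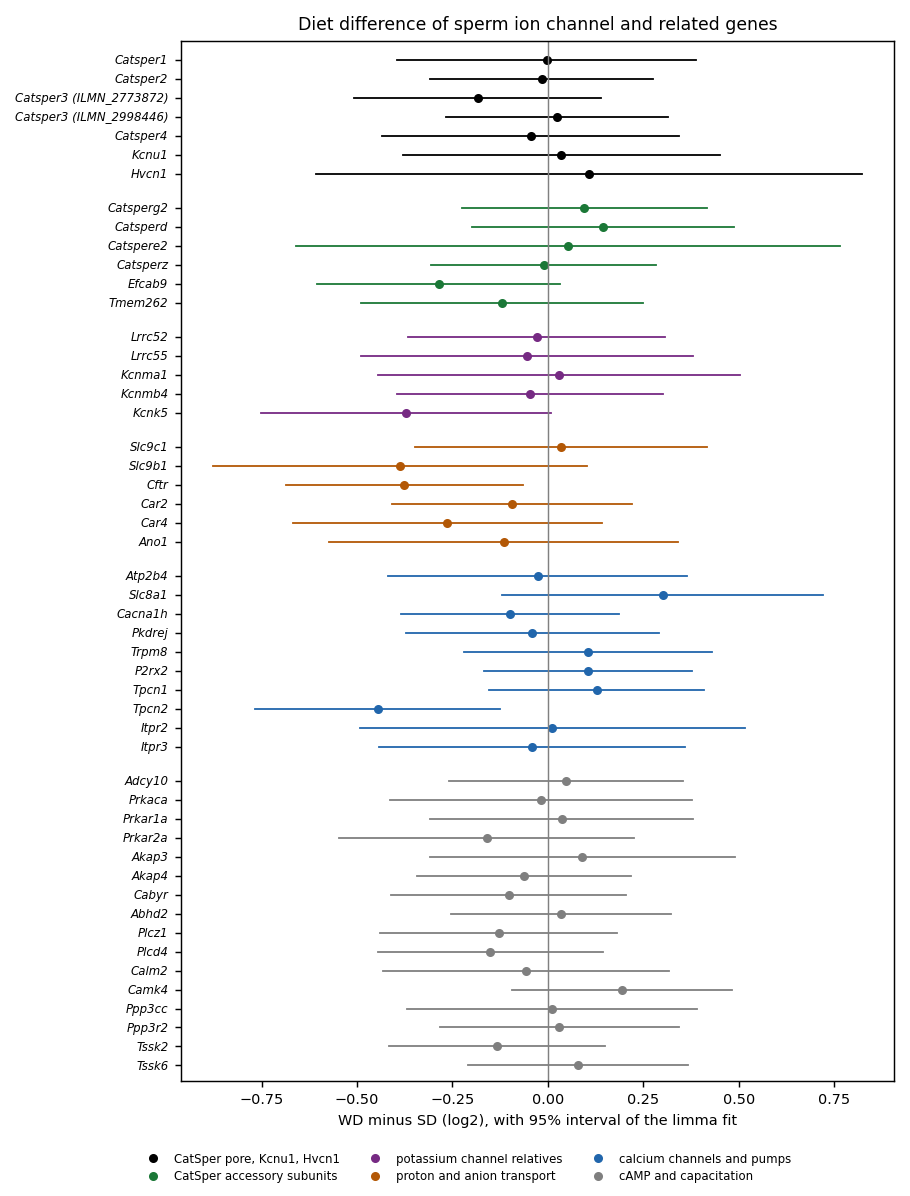
Difference between the diets (horizontal axis, WD minus SD on the log2 scale) of the 7 tested probes of the sperm ion channel genes (black) and of 43 related genes (coloured by list), with bars for the 95% interval of the limma fit. All 7 black bars cross 0, and of the coloured ones those of Cftr and Tpcn2 do not, although neither gene passed the adjusted threshold.

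Of the few tested genes around SLO3 and among the transporters of protons and anions, most had negative differences, compared to 48.3% of all tested genes. Several of these differences were smaller than their SE. Of 11 potassium channel genes 5 were tested, of which 1 was higher and 4 lower in WD, with a median of -0.05 and 0 called. Lrrc52, the auxiliary subunit of SLO3, had a difference of -0.03 ± 0.146 (SE, adjusted p = 0.989), close to the 0.04 of Kcnu1 itself. Kcnma1, a relative of Kcnu1, had the highest difference with 0.03, and Kcnk5, a background potassium channel, the lowest with -0.37 ± 0.165 (adjusted p = 0.935). The probes of Kcnk5 did not all go that way: another tested probe had -0.35, whereas the remaining one, detected in 2 WD mice and 0 SD mice and not tested, had levels of 5.53, 5.34 and 5.90 in the WD mice, against 4.57, 4.73 and 4.91 in the SD mice. Of 13 proton and anion genes 6 were tested, of which 1 was higher and 5 lower, with a median of -0.19 and 0 called. The highest was Slc9c1, the sperm sodium-proton exchanger (0.03 ± 0.166, adjusted p = 0.989), and the lowest was Slc9b1, a testis exchanger of the same class (-0.39 ± 0.213, adjusted p = 0.935), whose 4 tested probes ranged from -0.39 to -0.03. Cftr, a chloride and bicarbonate channel, had levels of 8.02, 8.29 and 8.23 in the WD mice, against 8.65, 8.47 and 8.55 in the SD mice. The WD mice lay below the SD mice without overlap, with a difference of -0.38 ± 0.135 (adjusted p = 0.905).

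Calcium channels, pumps and capacitation genes were divided evenly. Of 23 calcium and sodium transport genes 10 were tested, 5 higher and 5 lower in WD, with a median of -0.01 and 0 called. Slc8a1, a sodium-calcium exchanger, had the highest difference (0.30 ± 0.183, adjusted p = 0.935). Its other probes went the other way, with -0.28, -0.24 and -0.06, but were detected on at most 2 arrays and not tested. The lowest was that of Tpcn2, an endolysosomal cation channel, with levels of 6.53, 6.61 and 6.65 in the WD mice, against 7.24, 6.90 and 6.99 in the SD mice (-0.45 ± 0.139, adjusted p = 0.874). Its relative Tpcn1 had 0.13 ± 0.122 (adjusted p = 0.958), of the opposite sign. Of 19 genes of cyclic AMP signalling and capacitation, the maturation that sperm undergo before fertilisation, 16 were tested, 8 higher and 8 lower, with a median of -0.004 and 0 called. The extremes were Camk4, a calmodulin-dependent kinase (0.19 ± 0.125), and Prkar2a, a regulatory subunit of protein kinase A (-0.16 ± 0.168), and Adcy10, the soluble adenylyl cyclase of sperm, had 0.05 ± 0.133.

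Over the 5 lists, 66 of 76 genes had a probe and 43 were tested, of which 18 were higher and 25 lower in WD (58.1% lower, compared to 48.3% of all tested genes), with a median of -0.03. In limma 0 passed the adjusted threshold, and 2 of them, Cftr and Tpcn2, had an unadjusted p under 0.05, both lower in WD, as did 2.57% of all tested probes in that direction. The diets did not overlap at 6 of the 43, with Tpcn1, Camk4 and P2rx2, an ATP-gated cation channel, higher in every WD mouse and Efcab9, Cftr and Tpcn2 lower in every WD mouse, against the 10.2% of all tested probes given before.

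The germ cells in which these transcripts arise were compared through their markers. Of 12 elongating spermatid genes 10 were tested, of which 1 was higher and 8 were lower in WD, with a median of -0.07 and 0 called. The remaining one, Prm1, took only the levels 15.77 and 15.81, both of them in each diet, since quantile normalization gives the brightest probes of every array the same few values, and its difference of 0 is no measure of equality. The summed linear level of the list was 242000, 239000 and 239000 in the WD mice, against 250000, 248000 and 246000 in the SD mice. The diets did not overlap in this sum, in which the brightest probes, such as that of Prm1, weigh most. Gene by gene they did not overlap at 1 of the 10, lower in WD, compared to 10.2% of all tested probes. For round spermatids, 10 genes gave a median of 0.001 (5 higher, 5 lower). Their summed levels were 69900 to 71600 in the WD mice and 71900 to 72500 in the SD mice. These sums did not overlap either, although the diets overlapped at each of the 10 genes. For spermatocytes, 9 genes gave a median of -0.18 (1 higher, 8 lower), with 80600 to 86400 in the WD mice and 80300 to 87100 in the SD mice. The summed level of the 6 ion channel genes was 20400, 19800 and 18400 in the WD mice, against 20400, 18600 and 20000 in the SD mice, and the diets overlapped. This sum leans on Catsper2, whose probe had the highest intensities of the 6. The part of germ cell numbers in the channel levels was not tested.

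The differences of the 6 genes were small enough for their sign to depend on single mice. For Catsper3 and Kcnu1 the sign also depended on the normalization. Leaving out 1 mouse at a time gave values between -0.11 and 0.12 for Catsper1, between -0.06 and 0.04 for Catsper2, between -0.03 and 0.07 for Catsper3, between -0.18 and 0.05 for Catsper4, between -0.06 and 0.22 for Kcnu1 and between -0.07 and 0.46 for Hvcn1. Hvcn1 reached its highest value without WD mouse 4, in which the probe was undetected. No alternative brought the adjusted p of any of these genes under 0.809.

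**Figure D3:**
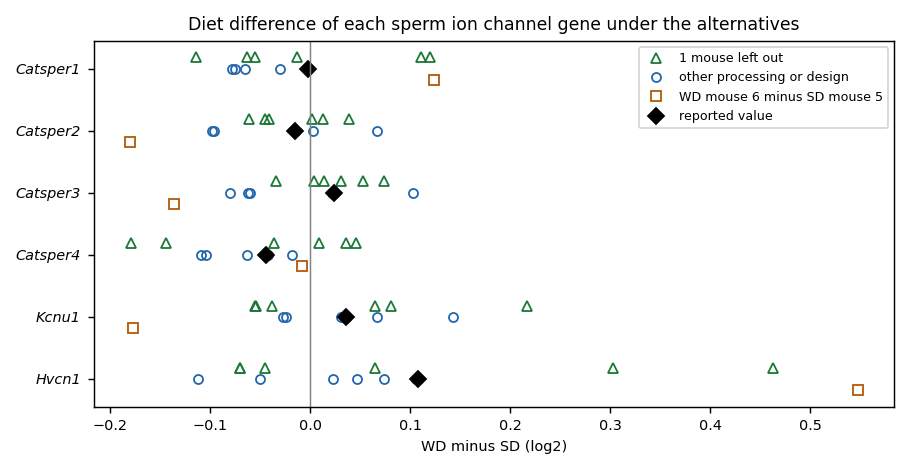
Difference between the diets (horizontal axis, WD minus SD on the log2 scale) of 6 genes as reported (black diamonds), with 1 mouse left out (green triangles), with other processing or designs (blue circles) and between WD mouse 6 and SD mouse 5 alone (orange squares). Every gene has symbols on both sides of 0, those of Catsper4 right of 0 come from leaving out single mice and reach 0.05, and Hvcn1 reaches furthest to the right with 0.55.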

How the data were processed

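Testis RNA of 3 WD and 3 SD mice was labelled with biotin and hybridised to 1 array per mouse, and the submitters' processing notes name GenomeStudio without a version. The deposited intensity values are linear bead intensities per probe, neither background-subtracted nor scaled between arrays. The detection score deposited beside each intensity rises with it, so that the detection p was taken as 1 minus this score. A second table, of log2 values made by the authors, served as an alternative. Each value was the log2 intensity after subtraction of that array's upper quartile and of a constant for the probe, within a standard deviation of 0.000152, and how the constant was chosen is unknown. Their median was -0.01196, 0 and 0.007596 in WD mice 3, 4 and 6 and -0.01725, -0.05636 and 0.001854 in SD mice 1, 2 and 5.

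The neqc function (limma 3.58.1, R 4.3.3, offset 16) corrected the background and applied quantile normalization, with the background inferred from the detection p. Probes with a detection p under 0.05 on at least 3 of 6 arrays were tested, 19763 in all, with lmFit and eBayes for WD minus SD and Benjamini-Hochberg adjustment over all of them. The p-values set a difference against the spread between mice, and the number of arrays limits the precision. The procedure was run on simulated data with added differences larger than any of the 7 genes, which does not show how it treats small ones. Intervals come from the same fit. For a gene with several tested probes the one with the highest mean stood in the counts. A summed linear level adds the normalized intensities of such probes after subtracting the offset. Gene symbols came from the platform's annotation and were updated through GRCm38.p6, which changed 0 symbols. The genome build behind the probes is not given in the sources used, so that gene positions are given for RefSeq windows only. Named genes were all probes of the 7 genes and, of the related lists, those with an unadjusted p under 0.05 and the highest and lowest difference in each list. Catsperz, Catsperg1, Catsperg2, Lrrc52, Tpcn1, P2rx2, Adcy10, Prm1, Shbg and Hsd3b1 were named after their values were seen. The genes and lists were chosen with earlier results of these data known. Marker lists of spermatogonia, Sertoli and Leydig cells were measured too. The alternatives were other background correction, scaling, filters, variance prior, weights, a block and leaving out mice.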

Additional observations from a re-analysis of the deposited data

How the results depend on the processing

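No paired analysis was possible because no number in the titles occurs in both groups and only 1 number, that of SD mouse 2 and WD mouse 4, does so in the sample descriptions. The block of mice 5 and 6 marks their dim arrays and pairs no animals. In limma 0 probes of the array and 0 of the 6 genes passed the adjusted threshold in any alternative. With the median scaling the sign turned to -0.0626 for Catsper3 and -0.0277 for Kcnu1, with the deposited log2 values to -0.0605 and -0.0244, with array weights to 0.0023 for Catsper2 and -0.0505 for Hvcn1, and without mice 5 and 6 to 0.0664 for Catsper2 and -0.113 for Hvcn1. Between WD mouse 6 and SD mouse 5 alone it was 0.12 for Catsper1, -0.14 for Catsper3 and -0.18 for Kcnu1 and, with the same sign as before, -0.18 for Catsper2. The median over both probes of Catsper3 was -0.0802. Leaving out 1 mouse gave -0.114 to 0.119 for Catsper1, -0.0612 to 0.0383 for Catsper2, -0.0345 to 0.0739 for Catsper3, -0.179 to 0.0456 for Catsper4, -0.0559 to 0.217 for Kcnu1 and -0.0705 to 0.463 for Hvcn1. The median of the 43 related genes, -0.03 as reported, was -0.077 with the median scaling, which moved the median of all tested probes by -0.0469, and -0.0737 without mice 5 and 6. Hvcn1 gave no value with the stricter detection filters, which left its probe out. In each case the cause was not tested. Intensities near background limit what Catsperb and Hvcn1 can show.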

Other observations

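Genes with the nearest pattern over the 6 mice were looked up as the smallest root mean square difference between centred log2 levels, among all tested probes with another symbol. With so many probes and 6 mice, near patterns are found for any gene, and they are given as values only. The nearest were Rbbp9 for Catsper1 (0.0316, where Catsper1 varied by 0.176 about its own mean), Mroh8 for Catsper2 (0.0214, against 0.0714), Lyplal1 for Catsper3 (0.0246, against 0.0706), Ambra1 for Catsper4 (0.0363, against 0.176), Fam110a for Kcnu1 (0.0347, against 0.197) and Rrp1b for Hvcn1 (0.0924, against 0.414). None of these nearest genes is in the related lists, and the 7 genes themselves were left out of the search. For the mean over the 6 genes, which leans on Hvcn1, the nearest were Stambp (0.0119), Dusp16 (0.0257) and Morc3 (0.0281).

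Somatic markers, which share the testis extract with the germ cells, had positive medians, for which WD mouse 3 stood apart in Sertoli and Leydig cell genes. Of 10 Sertoli cell genes 8 were tested, 7 higher and 1 lower in WD, with a median of 0.14, and Shbg, the androgen-binding protein gene, had a difference of 0.56 (adjusted p = 0.935). Of 8 Leydig cell genes 7 were tested, 5 higher and 2 lower, with a median of 0.13, and the steroid dehydrogenase gene Hsd3b1 had 0.54 (adjusted p = 0.872). The summed linear level of the Leydig genes was 59500, 45600 and 44200 in WD mice 3, 4 and 6, against 47700, 47100 and 41300 in SD mice 1, 2 and 5. Relative to the SD mean of each gene, their median was 0.648 in WD mouse 3. It was -0.0092 and -0.0362 in WD mice 4 and 6, so that the higher median was that of 1 mouse. The difference of Hsd3b1 was not limited to WD mouse 3. This gene was higher in every WD mouse than in any SD mouse, and WD mouse 6 was the highest. At the other tested Leydig genes the diets overlapped. The summed linear level of the Sertoli genes was 23000, 17200 and 17300 in WD mice 3, 4 and 6. It was 18000, 18100 and 16200 in SD mice 1, 2 and 5, so that WD mouse 3 stood above all others in this sum. At 2 of the 8 Sertoli genes, Shbg among them, every WD mouse lay above every SD mouse. This held for 611 of all 11264 tested genes. Spermatogonia markers had a median of 0.13 over 7 genes, 5 higher and 2 lower. In each of these lists 0 genes passed the adjusted threshold.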
